A study of Mus musculus with 10 samples.

Results

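The genes described are 10 rows of the count matrix that encode inhibitors of the cyclin-dependent kinases (Cdkn1a, Cdkn1b, Cdkn2a, Cdkn2b and Cdkn2c) or belong to the p53 pathway (Trp53, Mdm2, Ccng1, Bax and Gdf15). They were chosen by symbol out of 23197 genes, with no measured value in the rule, and every symbol matched 1 row. The cells were mouse embryonic fibroblasts (MEFs) of the outbred ICR strain, made from embryos whose head, limbs and viscera had been removed, during chemical reprogramming towards extraembryonic endoderm (XEN)-like cells. Single cells were picked by hand and their polyadenylated RNA was sequenced with unique molecular identifiers (UMIs), so that a value counts RNA molecules and not reads.

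The course was followed in 12 groups named after the day of sampling. The d0 group held MEFs before induction. The groups d1, d2, d3, d4, d5, d6p, d8, d12 and d20 were taken at those days under the C6FAE cocktail, and d8c and d12c were picked from colonies at days 8 and 12; the meaning of the letter p in d6p is not given in the labels. The cocktail was CHIR99021 (an inhibitor of the kinase GSK3), the ALK5 inhibitor abbreviated as 6, Forskolin (which raises cAMP), AM580 (a retinoic acid receptor agonist) and EPZ004777 (an inhibitor of the histone methyltransferase Dot1l). All induced groups shared it, and the matrix holds no group cultured without it after d0. The labels name 10 batches of cells, but a cell's name gives only its group and a running number, so the cells of 1 batch cannot be picked out and the whole course counted as 1 sample. Cells are not replicates of a condition. No test was therefore run and no p-value is given, and a difference of at least 2-fold in mean CPM (counts per 1000000, here the UMIs of a gene scaled to that total in a cell, spike-ins left out), with a mean of at least 5 CPM in either group, was taken as the size to report.

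Cyclin-dependent kinases drive a cell from one phase of its cycle to the next. Inhibitors of the Cip/Kip family, such as p21 (Cdkn1a) and p27 (Cdkn1b), bind cyclin-kinase complexes, whereas those of the Ink4 family (Cdkn2a, Cdkn2b and Cdkn2c) bind the kinases Cdk4 and Cdk6 and so keep the retinoblastoma protein active. The transcription factor p53 (Trp53) is held low by the ubiquitin ligase Mdm2 and, after damage or stress, activates Cdkn1a, Mdm2 itself, Ccng1, Bax and Gdf15. In cultured fibroblasts these genes are best known for the arrest that accompanies serial passage, in which the Ink4 locus and p53 both take part.

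The p53 protein binds a paired motif made of 2 decamer units of 10 bases. Matches with at most 1 mismatch and a spacer of at most 1 base were looked for on both strands within 3000 bases on either side of each gene's annotated start (mouse build NCBIM37, GENCODE M1). They were present at 577 of 22376 genes (2.58%) and at 4 of the 10 genes described here, with 5 matches in all. They are shown because 3 of those 4 genes are known p53 targets, and the capitals mark the 4 central bases of each unit. The targets Mdm2 and Bax had no match under these settings. The Cdkn1a match was at chr17:29227873-29227892 on the + strand, 51 bases before the start. Cdkn1a has another RefSeq start further downstream, and the match lies outside the 250 bases before that start. The Ccng1 matches were at chr11:40568964-40568983, 170 bases before the start, and at chr11:40568438-40568457 in an intron, 356 bases after it, both on the - strand. The Cdkn2b match was at chr4:88954309-88954328 (- strand, in an intron 2613 bases after the start) and the Gdf15 match at chr8:73155865-73155884 (- strand, in an untranslated region 471 bases after the start).
Cdkn1a: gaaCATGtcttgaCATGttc
Ccng1, upstream: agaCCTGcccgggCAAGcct
Ccng1, intron: acgCAAGcccgggCTAGtct
Cdkn2b: agaCATGtccggtCTTGctc
Gdf15: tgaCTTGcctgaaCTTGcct

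The promoters of Cdkn1b and Cdkn2b are shown because these genes differed most, and in opposite directions, between d12 and d20. Each is the 250 bases before the RefSeq start (build GRCm38.p6), with Cdkn1b at chr6:134920151-134920400 on the + strand and Cdkn2b at chr4:89311033-89311282 on the - strand. Capitals mark matches on either strand to the GC box (GGGCGG) and to the core of the cAMP response element (TGACG). The Cdkn1b promoter held 1 GC box, a motif present in 32.7% of 32851 promoters of the same length. The Cdkn2b promoter held no GC box and 2 overlapping matches to TGACG, 1 on each strand, which was present in 17.8% of those promoters. These are matches of letters and not evidence of binding.
Cdkn1b: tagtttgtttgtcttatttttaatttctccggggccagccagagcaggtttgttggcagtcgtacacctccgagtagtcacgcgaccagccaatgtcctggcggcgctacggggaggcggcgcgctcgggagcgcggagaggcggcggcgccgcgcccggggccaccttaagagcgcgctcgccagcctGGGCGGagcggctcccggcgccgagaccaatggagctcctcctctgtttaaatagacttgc
Cdkn2b: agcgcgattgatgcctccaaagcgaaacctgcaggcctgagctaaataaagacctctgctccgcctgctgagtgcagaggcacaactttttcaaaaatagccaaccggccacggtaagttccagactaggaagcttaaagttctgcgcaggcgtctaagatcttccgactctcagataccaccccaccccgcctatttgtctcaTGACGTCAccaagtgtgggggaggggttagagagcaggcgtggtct

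Of 808 cells in the matrix, 670 had at least 4000 detected genes and were kept, between 20 (d8c) and 86 (d6p) a group. Median depth ran from 195480 UMIs a cell at d20 to 1055206 at d2, and single cells from 17633 to 6004864. The filter removed 45 of 96 d12c and 34 of 72 d20 cells. The median share of ERCC spike-in UMIs was between 2.58% and 6.12% from d0 to d8, 10.2% at d8c, 11.0% at d12, 17.4% at d12c and 19.3% at d20. The starting cells carried fibroblast RNA: the summed level of 10 fibroblast markers had a median of 3043 CPM at d0 (range 88.5 to 13891), 10883 at d12 (667 to 57355) and 241 at d20 (8.06 to 966), where Dcn had no UMI. The summed level of 12 XEN markers had a median of 1845 CPM at d0 (514 to 8120), 3650 at d12 (553 to 10644) and 3338 at d20 (388 to 6353). This sum did not set d20 apart from d12. By gene, the median log2 ratio of the XEN markers to d0 was 1.24 at d12 (7 genes at the minimum) and 6.64 at d20 (11 genes). Of these markers Sall4, Foxa2 and Amn had no UMI at d0, and the XEN factor Sox17 had a mean of 0.11 CPM at d0, 70.8 at d12 and 982 at d20. Macrophage and endothelial markers had median sums of 0.84 and 2.36 CPM at d0, 19.98 and 5.29 at d12, and 0 at d20. Skeletal muscle markers had a median sum of 7.22 CPM at d0 and 3.74 at d20, but 120 at d8c, where 5 of 20 cells were above 1000 CPM, and 1 cell each of d0, d2 and d12c reached 47587, 21902 and 85684 CPM; the part of these cells in the results was not tested. Keratin and other epithelial markers had a median sum of 14.0 CPM at d0, 125 at d12 and 2215 at d20, so that d20 differed from d0 in the kind of cell as well as in time.

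Cdkn1a, the p21 inhibitor and the best known transcriptional target of p53, was detected in 669 of the 670 cells and dipped on the first day. At d0 its level ran from 24.7 to 7186 CPM with a median of 1733 (72 cells), and at d1 from 65.4 to 3965 with a median of 610 (40 cells). The cells of d0 and d1 overlapped, but 51 of 72 cells at d0 and 11 of 40 at d1 were above 1000 CPM. The mean was 2115 CPM at d0 and 911 at d1, 2.32-fold lower. The d2 cells had a mean of 2086 CPM (median 1582, range 7.84 to 12244), 2.29-fold above d1 and close to the d0 mean. In cells numbered 1 to 48, the only numbers kept at d1, d2 was less than 2-fold above d1. The highest d2 cell was the one with 21902 CPM of skeletal muscle markers, and without it the d2 mean was 1962 CPM. Means of 2530, 3035, 1891, 1928 and 1762 CPM followed at d3, d4, d5, d6p and d8. The highest d3 cell, at 19614 CPM, made 20.4% of the d3 sum. Without the highest cell of each group the means were 2069 CPM at d3 and 2043 at d0, and the d3 median was 1706. The d4 group had the largest share of cells above 1000 CPM, 70 of 77, and a median of 2773.

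At the end of the course Cdkn1a was lower at d20 than in the unpicked day 12 cells, with ranges that overlapped. Its level at d12 ran from 29.6 to 6516 CPM with a median of 2290 (67 cells), and the mean was 2612 CPM. At d20 it ran from 3.40 to 5754 CPM with a median of 820 (38 cells), and the mean was 1093 CPM, 2.39-fold below d12 and 1.94-fold below d0. The d8c and d12c cells had medians of 616 and 585 CPM, and the d12c mean of 1564 was within 2-fold of d12. High cells remained in each late group, with 17 of 38 cells at d20 and 17 of 51 at d12c above 1000 CPM. In the order of mean levels d4, d12, d3, d0, d2, d6p, d5, d8, d12c, d8c, d20 and d1, neighbours differed by less than the interquartile range within a group. Leaving out cells under 6000 detected genes, or pooling the UMIs of a group, brought the difference between d20 and d12 under 2-fold.

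**Figure D1:**
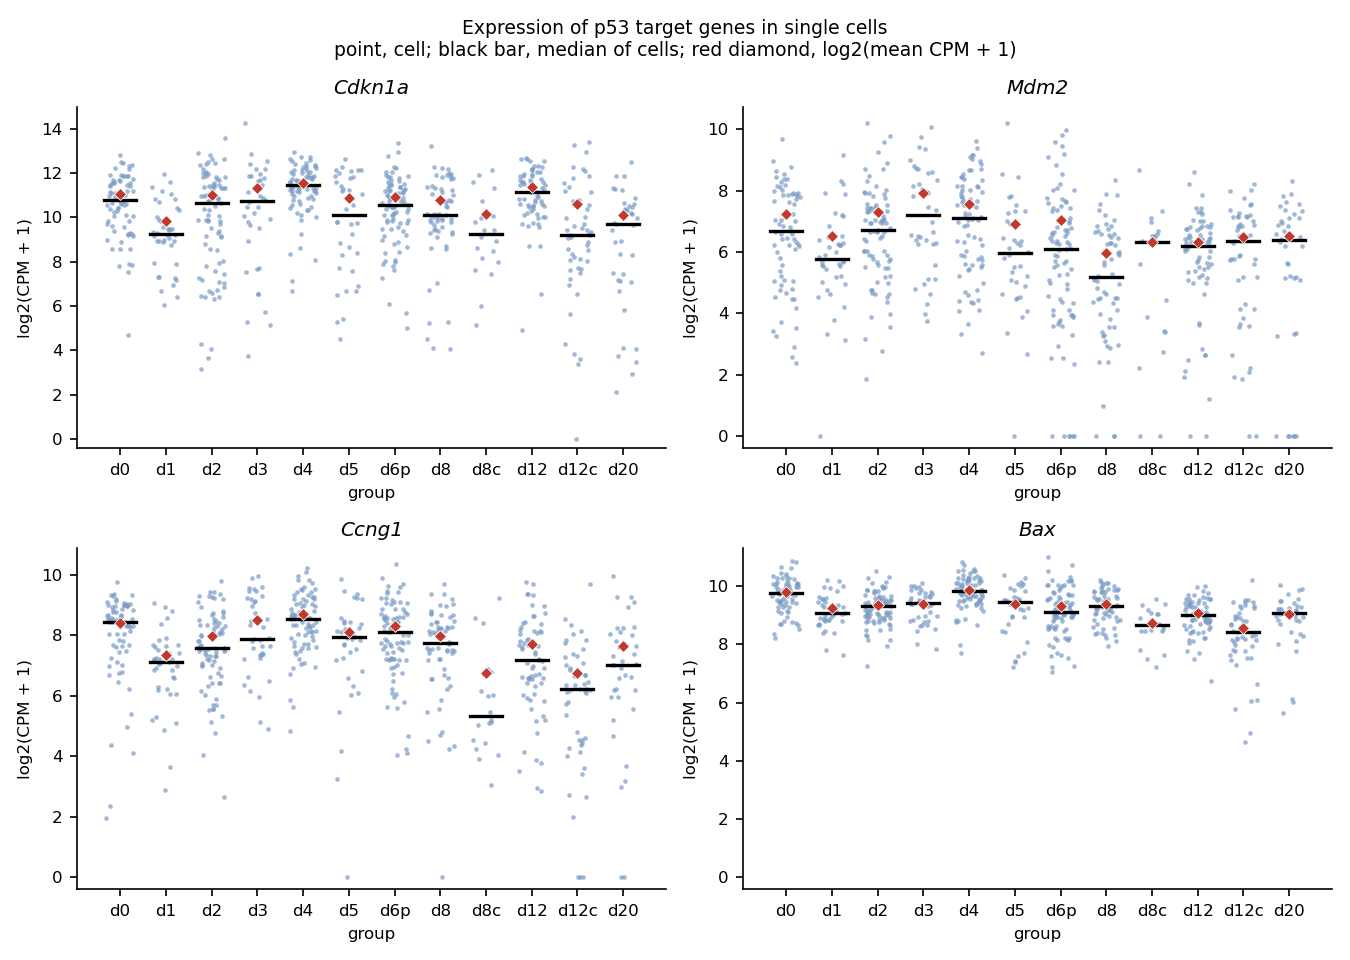
Level of Cdkn1a, Mdm2, Ccng1 and Bax in single cells of the 12 groups, as log2(CPM + 1) on the vertical axis. Each point is a cell, the black bar the median of the cells and the red diamond log2 of the mean CPM + 1. The d1 cells sat lower than the d0 and d2 cells for Cdkn1a and Ccng1, and Bax was detected in every cell.

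Mdm2, the ligase that removes p53, was past 2-fold of d0 at d8 alone. At d0 it ran from 4.16 to 831 CPM with a median of 101 and a mean of 150, and at d1 from 0 to 571 with a median of 53.2 and a mean of 91.5. The highest mean, 242 CPM, was at d3 (median 145, range 12.4 to 1067). From d8 on the means were between 60.9 and 91.0 CPM, with d8 2.47-fold below d0. All groups overlapped.

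Ccng1, which encodes cyclin G1, a regulator of Mdm2, was lower at d1 in the same way as Cdkn1a. It ran from 2.85 to 877 CPM at d0 (median 347, mean 337) and from 6.34 to 537 at d1 (median 138, mean 161), 2.10-fold lower. It was highest at d4, with a mean of 416 CPM and a median of 370. The colony cells were the low end of the course: the medians were 39.6 CPM at d8c and 73.1 at d12c, against 216 at d8 and 144 at d12, and the d8c mean of 106 was 2.39-fold below d8. At d20 the median was 130 CPM, and the mean of 199 was within 2-fold of d12 and of d0.

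Bax, which permeabilizes the outer mitochondrial membrane in apoptosis, was detected in all 670 cells, and its group means spanned the smallest ratio of the 10 genes. It ran from 299 to 1847 CPM at d0 with a median of 867, and from 48.7 to 1056 at d20 with a median of 536. The means were highest at d4 (939 CPM) and d0 (890 CPM) and lowest at d12c (378 CPM) and d8c (423 CPM). Those colony means were more than 2-fold below d0, and the other groups were within 2-fold of d0.

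Within a group, the p53 targets Cdkn1a, Mdm2, Ccng1 and Bax varied together from cell to cell. The Spearman coefficient of Cdkn1a with Mdm2 was above 0 in 12 of 12 groups, from 0.05 to 0.76 with a median of 0.48. It was likewise above 0 in 12 of 12 groups for Cdkn1a with Ccng1 (median 0.42), Cdkn1a with Bax (0.42), Mdm2 with Ccng1 (0.39) and Ccng1 with Bax (0.48), and in 11 of 12 for Mdm2 with Bax (0.28). Gdf15 was less regular, with Cdkn1a above 0 in 8 of 12 groups (median 0.14), Bax in 9 (0.13), and Mdm2 and Ccng1 in 10 each (0.24 and 0.22). Trp53 RNA had no regular relation to its targets, with medians of 0.11 for Cdkn1a, 0.07 for Mdm2, -0.04 for Ccng1 and 0.08 for Bax, and was above 0 with Ccng1 in 5 of 12 groups. Single groups ran from -0.11 to 0.53 for Mdm2 and from -0.15 to 0.40 for Ccng1. Both were highest at d4, where ranges of running numbers differed in Trp53, Mdm2 and Ccng1. These coefficients describe 20 to 86 cells a group, which share libraries and depth, and the within-group coefficient of Cdkn1a with depth itself ran from -0.23 to 0.32. Coefficients with depth ran from -0.16 to 0.47 for Mdm2, from -0.19 to 0.42 for Ccng1 and from -0.21 to 0.31 for Bax. Within 19 ranges of running numbers (1 to 48, or above 48, with at least 10 cells) the coefficient of Cdkn1a with Mdm2 was above 0 in 18 and that with Ccng1 in 19, with medians of 0.47 and 0.47. The exception was d12 above number 48, with -0.04 for Cdkn1a with Mdm2 over 22 cells. Of the other pairs, Mdm2 with Ccng1 was above 0 in 19 ranges, Cdkn1a with Bax and Ccng1 with Bax in 18 each, and Mdm2 with Bax in 17.

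**Figure D2:**
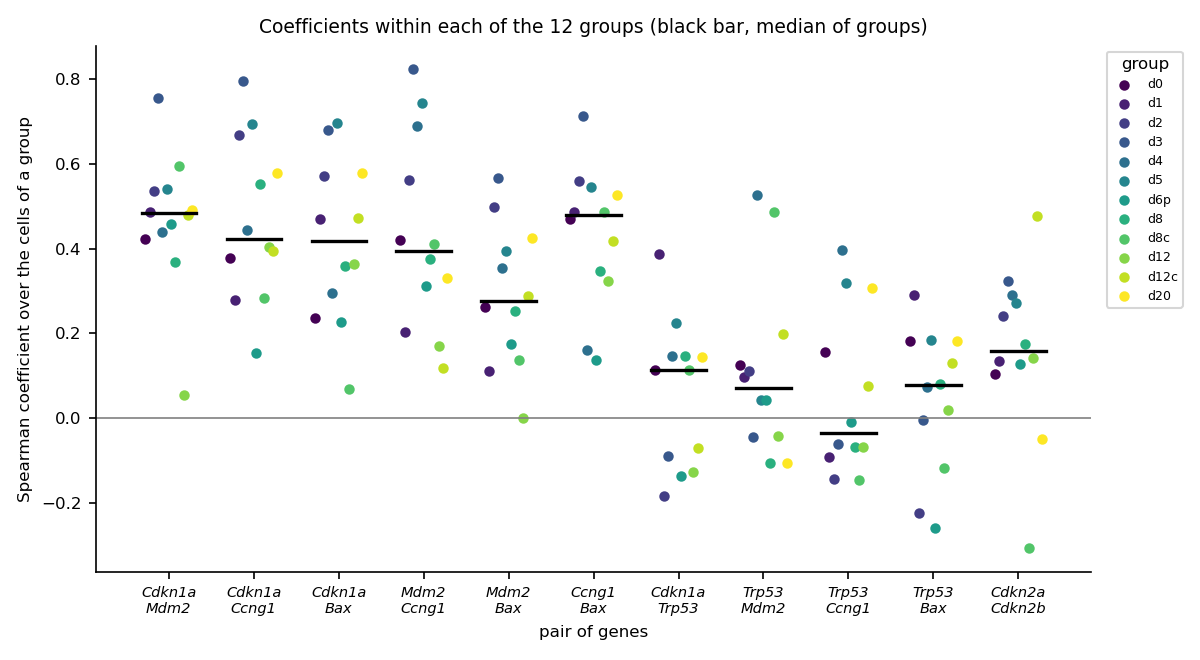
Spearman coefficient over the cells of a group for 11 pairs of genes, with 1 point for each of the 12 groups. Pairs among Cdkn1a, Mdm2, Ccng1 and Bax lie above 0 in nearly every group, with medians from 0.28 to 0.48. Pairs of Trp53 with these targets have medians from -0.04 to 0.11, with single groups up to 0.53.

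Trp53 itself was lower in the middle of the course. It ran from 0 to 670 CPM at d0 with a median of 115, and from 0 to 315 at d12 with a median of 41.1. The mean was 129 CPM at d0, 147 at d1, 141 at d2, 56.1 at d6p, 57.1 at d8 and 55.5 at d12, 2.32-fold below d0. At d20 it was 101 CPM with a median of 68.7, within 2-fold of both. In cells numbered 1 to 48 the Trp53 means were 157 CPM at d0 and 57.5 at d12. Above 48 they were 86.7 and 51.4 CPM, within 2-fold of each other. Trp53 was higher in cells with more RNA of 14 S-phase genes: the coefficient within a group was above 0 in 12 of 12, from 0.03 at d8 to 0.60 at d2. Within-group coefficients of Trp53 with depth ran from -0.22 to 0.38.

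Gdf15, a secreted stress cytokine of the TGF-beta superfamily, was highest in the starting cells, but its mean there rested largely on 1 cell. At d0 it ran from 0 to 4794 CPM with a median of 10.6 and a mean of 124, and the highest cell made 53.8% of the sum. Without that cell the mean was 58.0 CPM. At d1 the median was 0.98 CPM and the mean 24.3, 5.09-fold below d0, and from d4 on the median was at most 0.85. At d20, 4 of 38 cells held 24 UMIs in all (exact Poisson 95% interval 15.4 to 35.7, for counting error only), and the mean of 1.40 CPM was 88.6-fold below d0. With the highest cell of each group left out, d1, d12 and d20 were still at least 2-fold below d0.

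In mean CPM the Ink4 locus genes Cdkn2a and Cdkn2b were both at least 2-fold above d0 from d2 to d12, outside the colony groups. In the colony groups Cdkn2a alone was, with means of 35.4 CPM at d8c (median 0.90) and 24.4 at d12c (median 0). Both genes were lower at d20 than at d12, with Cdkn2a still above d0 and Cdkn2b below it. Cdkn2a encodes p16Ink4a and, from another first exon and reading frame, p19Arf, which blocks Mdm2; a count by gene does not tell them apart. At d0 it gave 16 UMIs in 14 of 72 cells (0 to 8.15 CPM, median 0), a mean of 0.47 CPM. The means were 2.34 CPM at d1, 9.32 at d2 and 12.1 at d3, and 27.4 at d12, where 52 of 67 cells held 1386 UMIs (0 to 360 CPM, median 3.22). The ratio of d12 to d0 was 57.7 on the mean CPM, and the exact Poisson interval of the d0 sum, 9.15 to 26.0 UMIs, shows how little its denominator holds. With each cell thinned to 50000 UMIs, 2 of 71 cells at d0 and 29 of 66 at d12 had a Cdkn2a UMI.

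Cdkn2b, which encodes p15Ink4b and is known as a gene induced by TGF-beta, was seen in 62 of 72 cells at d0 and in 79 of 83 at d2. It ran from 0 to 250 CPM at d0 with a median of 20.7 and a mean of 45.0, and from 0 to 910 at d2 with a median of 103 and a mean of 155. The interquartile ranges of these groups overlapped (3.42 to 63.9 CPM and 34.9 to 217), and 11 of 72 and 43 of 83 cells were above 100 CPM. The means at d3, d4, d5 and d8 were between 192 and 208 CPM and that at d6p was 127, and at d8 the median was 176. The d12 cells had a median of 79.7 and a mean of 131 CPM, 2.91-fold above d0. In UMIs per ERCC UMI the d12 to d0 difference of Cdkn2b turned to -0.14 on the log2 scale, where the median over all genes was -2.10, so that Cdkn2b was 1.96 above that median, against 1.69 above it in CPM. At d8c the median was 12.8 CPM and the mean 60.8, 3.18-fold below d8.

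At d20 both Ink4 genes were seen in few cells. Cdkn2b had UMIs in 7 of 38 cells (18.4%, exact binomial 95% interval 7.74 to 34.3), a median of 0 and a mean of 6.16 CPM, 21.3-fold below d12 and 7.30-fold below d0. Cdkn2a had 58 UMIs, also in 7 of 38 cells, and a mean of 6.52 CPM, 4.20-fold below d12 but 13.7-fold above d0. Without its highest cell the Cdkn2a mean at d20 was 4.60 CPM, below the minimum used. The number of cells with UMIs of both genes was 13 of 72 at d0, 51 of 67 at d12 and 1 of 38 at d20, and neither was seen in 9, 0 and 25 of those cells. Depth differed between these groups, with medians of 344196, 768565 and 195480 UMIs. After thinning, Cdkn2b was seen in 57.7% of cells at d0, 78.8% at d12 and 13.9% at d20.

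**Figure D3:**
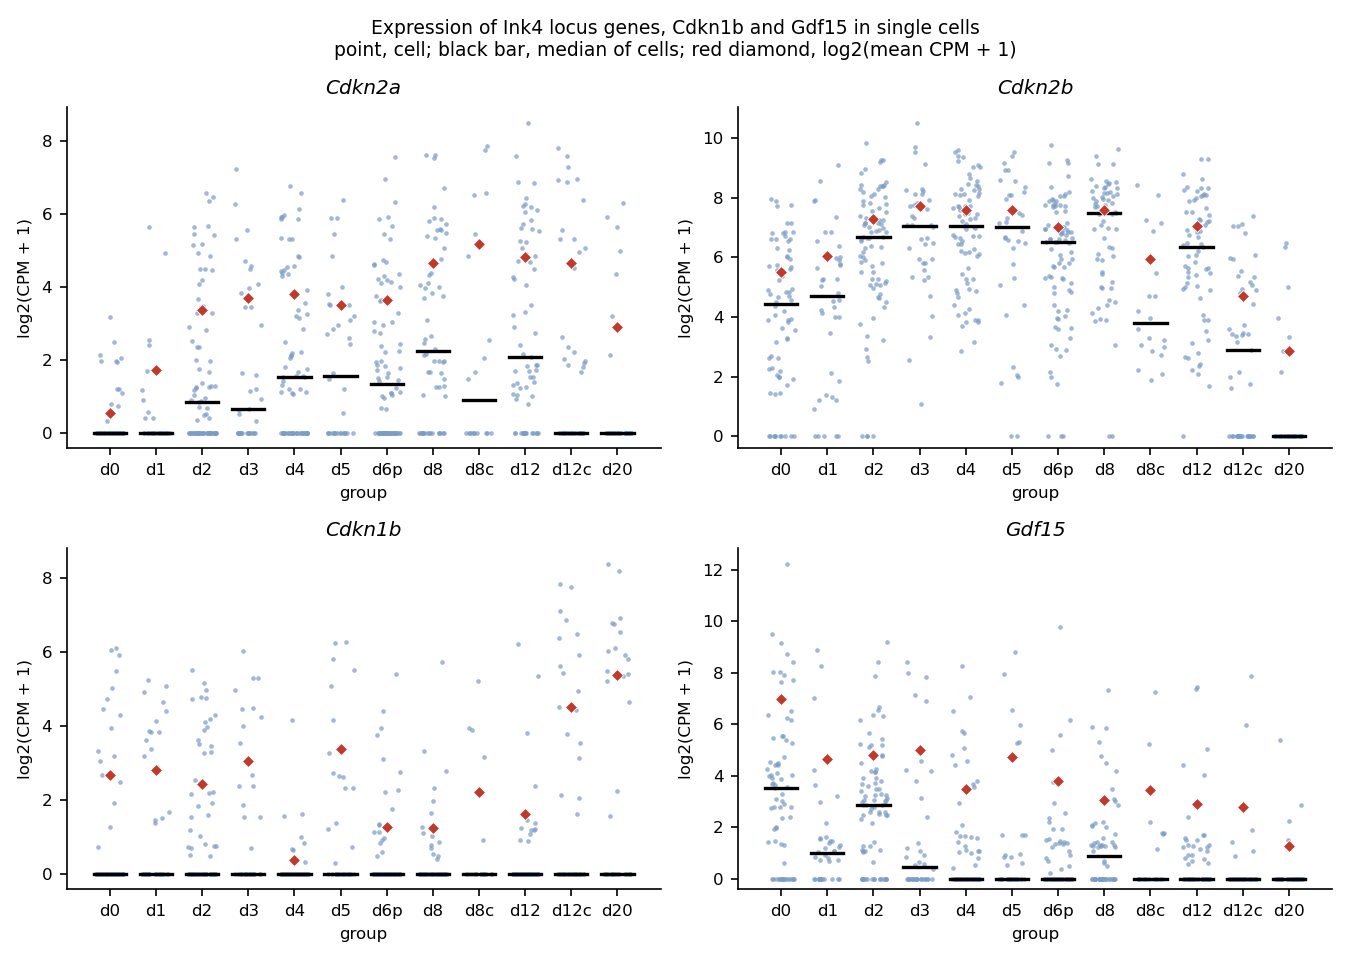
Level of Cdkn2a, Cdkn2b, Cdkn1b and Gdf15 in single cells of the 12 groups, as log2(CPM + 1). Each point is a cell, the black bar the median and the red diamond log2 of the mean CPM + 1. Cdkn2b has a median of 0 only at d20, and the Cdkn1b cells of d12c and d20 reach higher than those of other groups, up to 333 CPM.

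Cdkn1b was the inhibitor with its highest mean at d20. This gene, whose p27 protein is set largely by its rate of degradation, had a median of 0 in every group. It was seen in 17 of 72 cells at d0 (0 to 67.4 CPM, 132 UMIs), in 13 of 67 at d12 (0 to 72.6 CPM, 88 UMIs) and in 18 of 38 at d20 (0 to 333 CPM, 306 UMIs). The means were 5.38, 2.11 and 40.3 CPM, so that d20 was 19.1-fold above d12 and, in CPM, 7.49-fold above d0, whereas in UMIs per ERCC UMI the d20 to d0 difference turned to -0.19 on the log2 scale, 2.39 above the median of all genes. After thinning, 11.3% of cells at d0, 7.58% at d12 and 41.7% at d20 had a Cdkn1b UMI. Of the 18 d20 cells with Cdkn1b, 4 also had Cdkn2b, which was seen in 7 of the 38.

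Earlier in the course the Cdkn1b means of neighbouring days differed widely. The mean was 7.32 CPM at d3, 0.32 at d4 (62 UMIs in 8 of 77 cells) and 9.38 at d5. The d1, d3 and d5 groups hold only cells numbered up to 48, and whether they share a batch cannot be read from the names. Cdkn2c, which encodes p18Ink4c, was likewise lowest at d4 of these days, with 5.97 CPM at d3, 1.55 at d4 and 4.70 at d5. It never exceeded a mean of 6.66 CPM (d1), and at d20 a single cell held its 7 UMIs. The coefficient of Cdkn2c with 14 G2/M genes was above 0 in 12 of 12 groups, from 0.02 at d8 to 0.65 at d3, and that of Cdkn1b in 11 of 12, up to 0.38 at d8c. Coefficients with depth ran from -0.27 to 0.40 for Cdkn2c and from -0.15 to 0.50 for Cdkn1b. In cells with at least 10 CPM of the proliferation marker Mki67 the Cdkn2c mean was 6.76 CPM at d0, against 0.52 in the others, but at d8 it was 1.52 against 4.01 and at d12 0.27 against 0.98.

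The day 12 colony cells fell into ranges of running numbers that differed in these genes. Of numbers 1 to 24, 21 cells were kept, and of 49 to 96, 30 cells, while none of numbers 25 to 48 passed the filter. The lower range had a Cdkn1b mean of 1.39 CPM (4 of 21 cells) and a Cdkn2b mean of 40.9 (20 of 21 cells). The upper range had a Cdkn1b mean of 36.5 CPM (14 of 30 cells) and a Cdkn2b mean of 13.5 (10 of 30 cells). Fibroblast markers differed with them, with median sums of 6534 CPM (810 to 28421) and 173 (40.7 to 2567), as did Sox17, with means of 212 and 650 CPM. Median depth was 416789 and 276240 UMIs. Against d12, the upper range was 17.3-fold higher for Cdkn1b and lower for Cdkn2b (9.72-fold), Gdf15 (3.15-fold), Ccng1 (2.79-fold) and Cdkn1a (2.14-fold), and the lower range was past 2-fold for Cdkn2b alone (3.21-fold lower). Gdf15 in the upper range rested on 3 UMIs in 1 of 30 cells. Among all genes, 25.3% were at least 2-fold higher and 26.0% lower in the upper range against d12, and 12.4% and 13.1% in the lower range. Against the upper range, d20 was 2.68-fold higher for Ccng1 and 2.29-fold and 2.19-fold lower for Cdkn2a and Cdkn2b, with 20% of genes higher and 12.1% lower. Whether the ranges are colonies, plates or batches cannot be told apart.

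Ranges of numbers also differed within d4. Cells 1 to 48 (40 cells, median depth 778218 UMIs) and above 48 (37 cells, 322066 UMIs) had Mdm2 means of 85.7 and 301 CPM, Ccng1 means of 264 and 581, and Trp53 means of 50.3 and 135. Cdkn1a differed less, with 2708 and 3389 CPM, and Cdkn2a had means of 13.0 and 12.9. The d4 peak of Ccng1 and the d4 level of Mdm2 thus depended on which numbers were counted. In d2 the Cdkn1a means were 1616 CPM for cells 1 to 48 and 2642 above 48. The d1 cells were all numbered 1 to 48, with a mean of 911 CPM. In those numbers d2 was less than 2-fold above d1, with medians of 950 and 610 CPM, against 1619 at d0. In d20 the 30 cells up to 48 and the 8 above it had Cdkn1b means of 32.1 and 71.0 CPM.

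Counted over the 10 genes, few passed 2-fold at a time. Between d0 and d1, 9 genes reached the minimum level, 0 were higher and 3 were lower (Cdkn1a, Ccng1 and Gdf15), where 11.1% of all genes tested were higher and 13.0% lower. Between d1 and d2, 3 of 10 were higher (Cdkn1a, Cdkn2a and Cdkn2b) and 1 was lower (Cdkn2c), against 7.98% and 4.26% of all genes. In cells numbered 1 to 48, the only numbers at d1, Cdkn1a and Cdkn2c differed by less than 2-fold between d1 and d2. Between d0 and d2, 2 of 9 were higher (Cdkn2a and Cdkn2b) and 1 was lower (Gdf15), against 11.9% and 9.85%. Cdkn1a and Ccng1, lower at d1, were thus back within 2-fold of d0 at d2.

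At the later days the Ink4 genes made up the higher side. Against d0, Cdkn2a and Cdkn2b were the 2 genes higher at d3, d4, d5, d6p and d8, where 17.6%, 17.5%, 22.2%, 21.9% and 20.2% of all genes were higher. Gdf15 was lower at each of these days, alone at d3 and d5, with Cdkn1b at d4, with Cdkn1b and Trp53 at d6p, and with Cdkn1b, Trp53 and Mdm2 at d8, where 12.4%, 11.2%, 11.8%, 16.4% and 16.3% of all genes were lower. The colony groups had Ccng1, Bax and Gdf15 lower than d0, with Cdkn2a higher at d8c (21.1% of all genes higher and 18.1% lower) and Cdkn1b and Cdkn2a higher at d12c (20.2% and 16.9%).

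For d12 against d0, 2 of 9 genes were higher (Cdkn2a and Cdkn2b) and 3 lower (Cdkn1b, Trp53 and Gdf15), against 20.5% and 21.2% of all genes. For d20 against d0, 2 of 9 were higher (Cdkn1b and Cdkn2a) and 2 lower (Cdkn2b and Gdf15), against 24.7% and 20%. For d20 against d12, 1 of 9 was higher (Cdkn1b) and 4 were lower (Cdkn1a, Cdkn2a, Cdkn2b and Gdf15), against 32.3% and 23.9%. The share of d20 to d12 ratios below that of the gene was 97.4% for Cdkn1b and 7.7% for Cdkn2b. For d8c against d8, 0 of 8 were higher and 2 lower (Cdkn2b and Ccng1), against 15.6% and 17.4%, and for d12 against d8 none of 8 passed in either direction, against 15.6% and 19.6%.

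The scaling moved these ratios for all genes together. The median log2 ratio over all genes was 0.02 for d1 against d0, -0.15 for d12 against d0, 0.20 for d20 against d0 and 0.33 for d20 against d12 in CPM. With TMM factors it was 0.06, -0.09 and -0.16 for the last 3, with 23.9% higher and 16.6% lower, 19.0% and 24.5%, and 21.9% and 31.3%. In UMIs per ERCC UMI it was -2.10, -2.59 and -0.47, with 6.86% higher and 79.0% lower, 4.59% and 87.6%, and 16.7% and 36.5%. Relative to the median of all genes, Cdkn1a in CPM was at -1.24 for d1, 0.45 for d12 and -1.15 for d20, each against d0, and per ERCC UMI at -1.28, 0.50 and -0.69. Cdkn2a for d20 against d0 was 3.58 above the median in CPM and 3.91 above it per ERCC UMI.

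**Figure D4:**
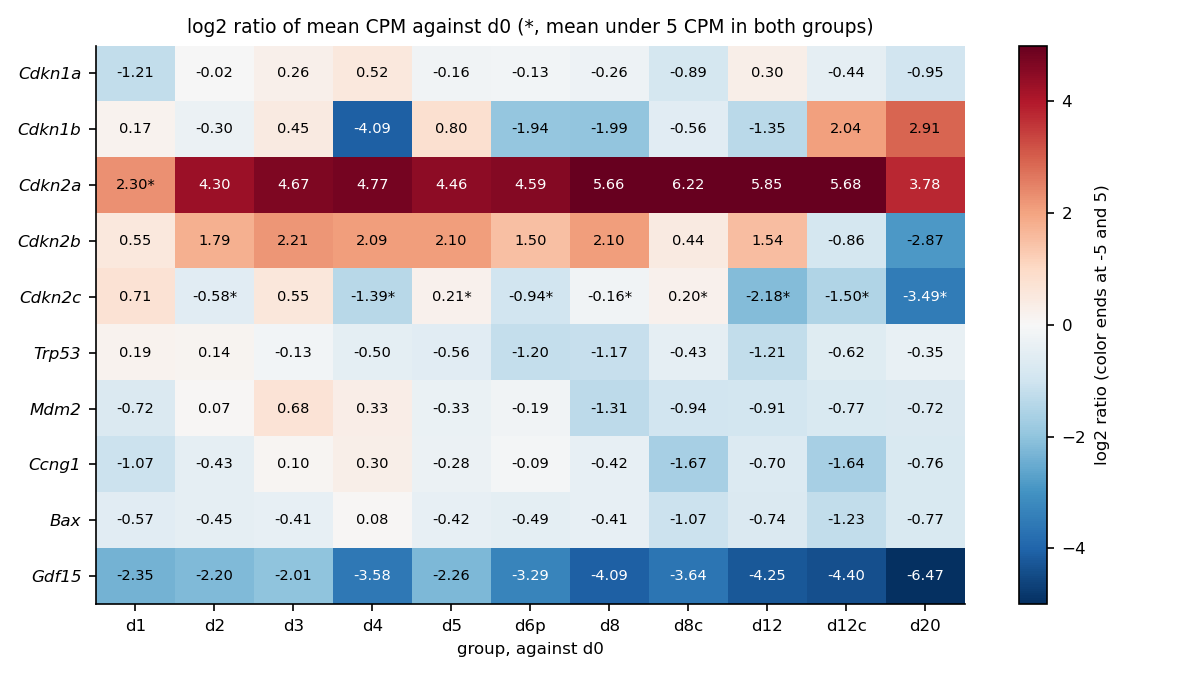
Log2 ratio of mean CPM in each later group to d0 for the 10 genes (colour scale in log2 units). A star marks a ratio where both means are under 5 CPM. Cdkn2a and Cdkn2b are above d0 from d2 to d12, Cdkn2b is below and Cdkn1b above it at d20, and Gdf15 is below it throughout. Per ERCC UMI, Cdkn2b at d12 and Cdkn1b at d20 were below d0.

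The wider p53 pathway was described with lists of known genes. Of 26 further targets in arrest, repair and stress, 20 reached the minimum for d1 against d0, of which 0 were higher and 8 lower (11.1% and 13.0% of all genes), with a median log2 ratio of -0.84 against 0.02 over all genes. For d12 against d0, 3 of 22 were higher and 8 lower (median -0.50), against 20.5% and 21.2% of all genes. Gadd45a, a growth arrest and DNA damage gene, was 18.1-fold higher, and Gtse1 and Ckap2, whose RNA accompanies mitosis, had means of 23.6 and 80.3 CPM at d0 and of 2.95 and 10.5 at d12. For d20 against d0, 6 of 23 were higher and 4 lower, near the 24.7% and 20% of all genes (median 0.31, against 0.20 over all genes). Gadd45a was 7.45-fold and Sesn2, a stress-induced inhibitor of TORC1 signalling, 5.91-fold higher, and Phlda3 was 2.36-fold lower. Per ERCC UMI, 19 of 22 of these targets were lower at d12 and 20 of 23 at d20, near the 79.0% and 87.6% of all genes.

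Of 15 further targets in apoptosis, 3 of 13 were higher and 3 lower at d1 (11.1% and 13.0% of all genes). At d12, 3 of 14 were higher and 9 lower (20.5% and 21.2% of all genes), with a median of -1.35 against -0.15 over all genes. Pmaip1, which encodes the BH3-only protein Noxa, was 12.5-fold higher (27.2 and 341 CPM), while the effector Apaf1 was 3.72-fold and the BH3-only gene Bid 3.45-fold lower. At d20, 0 of 12 were higher and 6 lower against d0 (median -0.85, with 24.7% and 20% of all genes past 2-fold): the death receptor Fas was 2.90-fold, the Puma gene Bbc3 2.53-fold and Bid 2.32-fold lower. Pmaip1 at d20 was 33.6 CPM. Of 11 Bcl2 family genes besides Bax, 0 of 8 were higher and 7 lower at d20 against d0 (median -1.49), with Bok 11.6-fold lower, and at d12, 2 of 8 were higher, Bcl2l11 (7.88-fold) and Mcl1 (2.26-fold), and 2 lower, Bcl2 and Bok.

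Of 19 regulators of p53, 15 reached the minimum. At d1 0 passed in either direction. Against the same shares of all genes, at d12 1 was higher (the deubiquitinase gene Usp7, 2.08-fold) and 6 lower, among them the damage kinase genes Atm (6.89-fold), Chek2 (3.71-fold) and Atr (3.67-fold). At d20, 2 were higher against d0, Chek2 (6.50-fold) and the phosphatase gene Ppm1d (4.90-fold), and 2 lower. Of the other inhibitor genes, Cdkn1c, an imprinted member of the Cip/Kip family, had means of 319 CPM at d0, 156 at d12 and 15.1 at d20, 21.1-fold below d0, and Cdkn3 was 5.11-fold lower at d12 and 2.20-fold lower at d20. Cdkn2d was under the minimum.

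Most genes of the S and G2/M phases, and most cyclin and kinase genes, were lower at d12 than at d0, where 20.5% of all genes were higher and 21.2% lower. Of 14 S-phase genes, 0 were higher and 13 lower at d12 against d0 (median -1.63), and 5 were higher and 0 lower at d20 (24.7% and 20% of all genes). The mean of their sum was 476 CPM at d12 and 347 at d8, whereas the medians were 202 and 218. Of 14 G2/M genes, 0 were higher and 13 lower at d12 (median -2.69), and 0 passed in either direction at d20 (median 0.16). The mean of the G2/M sum was 489 CPM at d12 and 720 at d8. Of 12 cyclin and kinase genes, 0 were higher and 8 lower at d12 (median -1.45), with Ccnb1 9.36-fold and Cdk1 6.47-fold lower. At d20, 2 were higher and 2 lower, Ccnd2 (3.42-fold) and Cdk6 (3.21-fold), of which Cdk6 is the partner of the Ink4 proteins. Of 12 Rb and E2F genes, 1 of 9 was higher and 3 lower at d12, and 2 of 9 were higher and 2 lower at d20, which is near the share of all genes. Per ERCC UMI all 14 S-phase and all 14 G2/M genes were lower at d12 and at d20, where 79.0% and 87.6% of all genes were lower. Of 9 secreted genes linked to senescence, 4 were higher at d12, with Il6 77.7-fold (133 CPM) and Cxcl1 14.5-fold, and 2 lower, and at d20 0 of 8 were higher and 8 lower than at d0.

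Between groups, high Cdkn1a went with a low share of cells with Mki67 in some groups but not in all. Cells with at least 10 CPM of Mki67 made up 24.7% of d4 and 10.4% of d12, the groups with the highest Cdkn1a means. They made up 82.5% of d1, where the Cdkn1a mean was lowest. The order was not strict: d3 had a share of 57.9% with a Cdkn1a mean of 2530 CPM, and d8 had 14.5% with 1762 CPM. For d0, d2 and d20 the shares of cells with Mki67 were 56.9%, 66.3% and 52.6%. The mean of Cdkn1a was higher in the cells without it in 8 of 12 groups, among them 1719 against 740 CPM at d1 (7 and 33 cells), 2864 against 1690 at d2 (28 and 55), 3748 against 1645 at d3 (16 and 22) and 2575 against 1126 at d5 (19 and 17). It was higher in the cells with Mki67 in the other 4, with 2395 against 1786 CPM at d6p (20 and 66 cells), 1306 against 983 at d8c (10 and 10), 3466 against 2512 at d12 (7 and 60) and 1175 against 1001 at d20 (20 and 18). At d8 and d12c it was lower in them, 1350 against 1832 CPM and 1020 against 1813, so that the order did not turn once over the course. The cells of both kinds overlapped in each group. The coefficient of Cdkn1a with the summed G2/M genes was -0.42 at d3, -0.56 at d5, -0.06 at d12 and 0.02 at d20. Cdkn2b was related to S-phase genes at -0.41 at both d8 and d12. At d3 the median depth was 987062 UMIs in cells with Mki67 and 479246 in cells without, and the part of depth in these differences was not tested. The d3 medians of Cdkn1a were 1129 CPM in cells with Mki67 and 2011 in cells without.

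**Figure D5:**
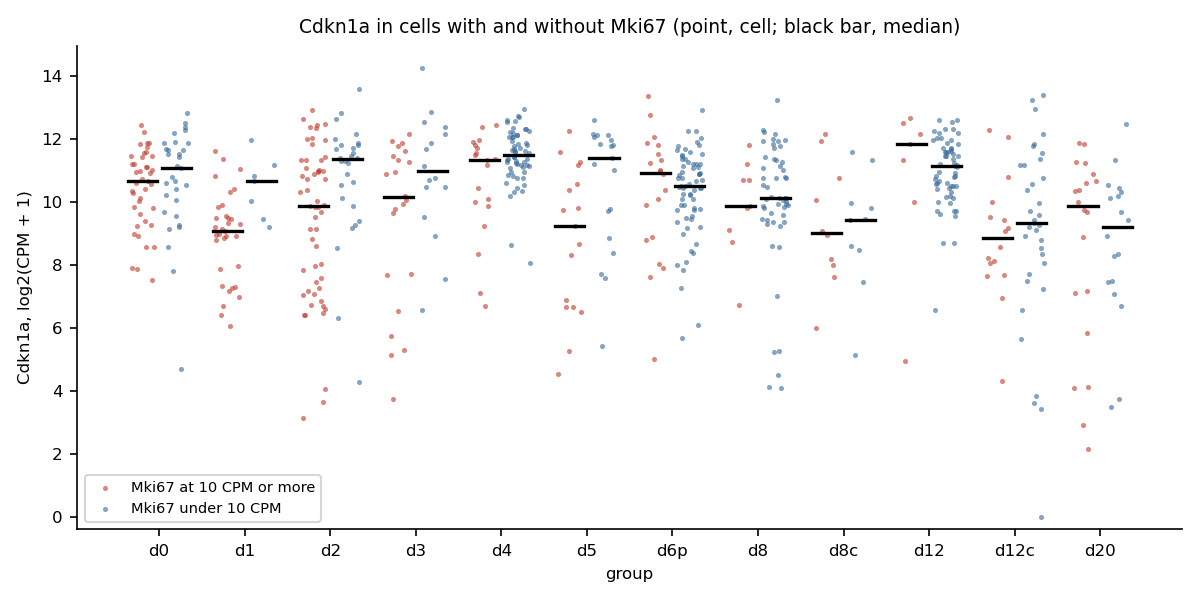
Level of Cdkn1a in cells with at least 10 CPM of Mki67 and in the other cells of each group, as log2(CPM + 1), with 1 point a cell and a bar at the median. The cells without Mki67 have the lower median at d6p, d12 and d20 and the higher one in the other 9 groups.

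Over the 12 group means on the log2(mean CPM + 1) scale, the genes with the most similar course among 12128 genes were found for each member, as a description over 12 points that share depth and cell type. Cdkn2b was most like Fblim1 (Pearson r 0.98), Serpinf1 (0.96) and Ngly1 (0.95), and Trp53 most like Ran (0.96), Psmg1 (0.96) and Pa2g4 (0.96). Cdkn1b was most like Mgme1 (0.96), Fancd2 (0.96) and Cox7a2 (0.93), and Cdkn2a like Btg1 (0.93), Tmem176a (0.91) and Ets2 (0.91). Bax was most like Aen (0.93), itself on the list of p53 targets, Glrx3 (0.91) and Shox2 (0.91). Ccng1 was most like Zfp365 (0.95), Zfp821 (0.93) and Tap1 (0.93), Gdf15 like Ywhae (0.93), Sh3glb1 (0.91) and S100a4 (0.91), and Mdm2 like Mab21l2 (0.90), Cxcr6 (0.88) and Capn6 (0.87). Cdkn2c was most like Tmem265 (0.89), Nfic (0.89) and Acat1 (0.88), and Cdkn1a like Pqlc3, Mgmt and Pdcd6ip (each 0.86). Among the 10 genes, the closest courses were those of Ccng1 and Bax (0.91) and the most opposed those of Cdkn1b and Cdkn2b (-0.76).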

How the data were processed

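The deposited matrix holds UMI counts per gene and cell. Per the labels and the study's methods, the authors picked single cells by hand, amplified cDNA, sequenced 150-base paired ends and counted de-duplicated UMIs on the mm9 transcriptome; the aligner and the strand of counting are not given in the sources used here. From these counts, 92 ERCC rows and 4 rows with repeated names were set apart, 670 of 808 cells, those showing 4000 genes or more, were analysed, and CPM was computed in Python 3.11.15 (pandas 2.3.3, scipy 1.17.1, matplotlib 3.10.9). Hand picking made a doublet caller unsuitable, and none was run. A gene was taken as higher or lower at 2-fold in mean CPM with at least 5 CPM in either group. The calculation was tested on simulated data, in which some genes drawn without a change also passed 2-fold, so that passing it is a size and not a test. Thinning drew 50000 UMIs from each of 647 cells. TMM factors came from edgeR 4.0.16 and size factors from DESeq2 1.42.0 in R 4.3.3, as alternatives only. The other alternatives were filters on cells, averaging, the minimum level, ERCC scaling, thinning and running numbers. Genes named from the wider lists are up to 3 with the largest differences in either direction between d0, d12 and d20, and genes of similar course are the 3 with the highest coefficient. The members and lists were chosen with earlier results of these data known. Intervals cover counting error only. A sheet of barcodes was not used here.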

Additional observations from a re-analysis of the deposited data

How the results depend on the processing

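Of 124 alternative counts of members past 2-fold, 104 were within 1.5 times the value reported and 20 were not. For d1 against d0, members higher went from 0 to 1 with pooled UMIs (Cdkn1b), without a minimum level (Cdkn2a) and in cells numbered 1 to 48 (Cdkn2c), and to 2 per ERCC UMI (Cdkn2b and Cdkn2c). For d2 against d0, members lower went from 1 to 0 on the mean log2(CPM + 1) and to 2 in cells numbered above 48. For d12 against d0, ERCC scaling left 1 member higher and 7 lower. For d20 against d0, members higher went from 2 to 1 on the mean log2 scale, without the highest cell, per ERCC UMI and after thinning, and members lower from 2 to 4 without a filter on cells, 5 with TMM factors, 6 on the mean log2 scale and 7 per ERCC UMI. For d20 against d12, cells with at least 6000 detected genes and pooled UMIs each gave 2 higher (Cdkn1b and Trp53) and 2 lower (Cdkn2a and Cdkn2b). Of 616 alternative log2 ratios of single members, 260 stayed within the exact binomial 95% interval of the pooled UMIs, 354 moved beyond it and 2 turned against a difference past 2-fold; 580 kept their sign. Among ratios past 2-fold, 2 turned, both per ERCC UMI: Cdkn2b for d12 against d0 (-0.14) and Cdkn1b for d20 against d0 (-0.19). Apart from the construction of each alternative, the cause was not tested. Cells numbered above 48 were fewer than 10 at d1 and d20, so 3 comparisons have no such value. No paired analysis was possible because cells carry no batch and the course is 1 sample.

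Depth limits Cdkn2a at d0, Gdf15 at d20 and Cdkn2c at d20, which rest on 16, 24 and 7 UMIs. It also limits Gdf15 in d12c cells numbered 49 to 96, with 3 UMIs.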
